A study of Mus musculus with 16 samples.

Results

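The 10 genes described here encode proteins that bring myoblasts together, let them fuse, or shape and repair the membrane of the muscle cell. Membership went by gene name and used no threshold on a measured value, although the list was drawn up with earlier results of these data known. Every probe whose gene name in the scanner files was Tmem8c, Gm7325, Cdh2, Jam3, Kirrel, Cdon, Boc, Cav3, Dysf or Myof was taken, which gave 14 probes for 10 of the 34836 gene names on the array. Tmem8c is the older name of Mymk (myomaker) and Gm7325 that of Mymx (myomixer). All 14 probes were well above background on all 16 arrays, and all 10 genes were among the 20317 that passed the filter on low signal.

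Skeletal muscle fibers form by fusion of mononucleated myoblasts. Myoblasts first adhere through cadherins and immunoglobulin-domain proteins, and the membranes then merge through the muscle-specific fusogens myomaker, which acts on hemifusion, and myomixer, a micropeptide that opens the fusion pore. Cdon and Boc are co-receptors that promote differentiation from cell contacts made by cadherins and that also bind Hedgehog ligands, while caveolin-3 and the ferlins organize, fuse and repair the membrane of the differentiated cell.

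The samples came from male C57Bl/6J mice aged 11 to 13 weeks; the labels name no transgene and no drug. Dispersed myoblasts were cultured on gelatin-coated plates away from the fiber (1 mouse per preparation). Myofiber-associated myoblasts were cultured on their own explanted fibers and then stripped from them with trypsin (2 mice per preparation), and 1 of their 48-hr arrays carried 2 pooled preparations. Each culture was taken at 48 and 72 hr after isolation, with 4 arrays per group and 16 in all, and the comparisons address how the cells change with time with and without the fiber. In the following, a level is a normalized log2 signal of 1 probe, a change is the level at 72 hr minus that at 48 hr, and a gene is called where limma's adjusted p over all genes is under 0.01.

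Before the results, the preparations were checked against marker genes. All 8 myoblast markers (Pax7, Myod1, Myf5, Des, Cdh15, Itga7, Sdc3 and Sdc4) were well above background on all 16 arrays. However, 21 of 21 adult muscle fiber markers, among them myosins, troponins and parvalbumin, were too on all 8 myofiber-associated arrays, and 19 of them on all dispersed arrays at 72 hr. On the log2 scale, the summed signal of the 21 ranged from 16.69 to 17.21 over the dispersed arrays at 48 hr and from 16.50 to 16.73 at 72 hr. In myofiber-associated myoblasts it was 21.04 on the pooled 48-hr array and 21.49, 21.21 and 21.45 on 48-hr replicates 7, 8 and 9. At 72 hr it was 19.59, 20.79, 19.13 and 20.998 on replicates 1 to 4. The labels describe the stripped preparations as highly pure. The paper does so too, citing supplementary figures, and states that their RNA was free of contaminating fiber RNA. Yet transcripts of the adult fiber were abundant in every myofiber-associated preparation, most at 48 hr. Among the 72-hr arrays replicates 2 and 4 stood well above replicates 1 and 3. The linear summed signal of 12 endothelial markers also moved with time, from 142546 to 194285 down to 52446 to 74219 in dispersed myoblasts and from 22390 to 48245 down to 13311 to 17012 in myofiber-associated myoblasts. The sums of 8 fibroblast markers (103700 to 240257, then 44434 to 79128) and 8 leukocyte markers (21268 to 29265, then 15866 to 20084) were also lower at 72 hr on the fiber, and that of 6 Schwann cell markers in dispersed myoblasts (7794 to 9474, then 5999 to 6818), each with no overlap. Such sums weigh the brightest markers most. Gene by gene, 7 of 12 endothelial, 4 of 8 fibroblast and none of 6 tested leukocyte markers were called lower on the fiber, against 1.74% of all genes. In dispersed myoblasts 11 of 12 endothelial and 3 of 5 tested Schwann cell markers were, against 6.32%. Of 7 pericyte and smooth muscle markers, 3 were called lower in dispersed myoblasts and 1 on the fiber, while their sums overlapped between the times in both cultures. In these bulk preparations, fewer cells of a type and less RNA per cell cannot be told apart, and the part of the other cell types in any result below was not tested.

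The part of each transcript that was read is shown by bases 31 to 60 of the 60-base probes for both fusogens and for Cdon and Kirrel, whose probes gave unlike results. Bases are 5′ to 3′ in the sense of the transcript, and capitals mark the polyadenylation signal AATAAA in the Gm7325 probe.
Tmem8c A_51_P261835: actttgttatgcggcctgtacatgagaaat
Gm7325 A_66_P114804: gtagtcAATAAAcgaggacagtgtgttgtt
Cdon A_51_P334739: ttaattcaaatcagagaaaccattatttat
Cdon A_52_P575178: tagttttgacaggttttatttggttggcat
Kirrel A_55_P2266880: gtgtcctttatgcctttcctattctgacat
Kirrel A_55_P2000743: atcccatcccaaggatggtgctctgcgcag
Kirrel A_52_P452569: gctatgagacaaacgttgactattccttct
In the scanner files' positions on mm9, the Tmem8c probe lies at chr2:26917594-26917653 and the Gm7325 probe at chr17:45737921-45737980, both on the minus strand. The Cdon probes lie at chr9:35311862-35311922 and chr9:35315141-35315200 on the plus strand, in the order listed. The Kirrel probes lie on the minus strand at chr3:86882628-86882687, chr3:86886885-86886944 and chr3:86893479-86893538, in the order listed. Exon and UTR boundaries on mm9 were not used here.

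Both fusogens rose with time in both cultures, and Gm7325 changed more than any other member. Tmem8c, which encodes the multipass membrane protein myomaker, had levels of 7.32, 6.97, 7.14 and 6.93 on dispersed 48-hr replicates 1 to 4 and of 8.30, 8.31, 8.35 and 8.71 on 72-hr replicates 5 to 8. In myofiber-associated myoblasts it had levels of 6.90 on the pooled 48-hr array, 6.67, 7.10 and 6.95 on replicates 7 to 9, and 9.73, 8.64, 9.98 and 8.48 on 72-hr replicates 1 to 4. Every 72-hr array lay above every 48-hr array in both cultures, and the 72-hr replicates with the lower fiber marker signal, 1 and 3, were the higher ones. The change was 1.33 off the fiber (2.51-fold, SE 0.12, limma adjusted p = 0.000213) and 2.30 in myofiber-associated myoblasts (4.94-fold, SE 0.34, limma adjusted p = 0.00456). The latter call held in 4 of the 8 fits that left out 1 array, and was lost without 48-hr replicate 7, 8 or 9 or 72-hr replicate 1, with an adjusted p of up to 0.0193. It also missed the threshold narrowly with normexp background correction (adjusted p = 0.0103), without the filter on low signal (0.0136) and with the slide row as a block (0.0103), the range over all settings of the processing being 2.88e-05 to 0.0136.

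Gm7325, which encodes the micropeptide myomixer, had levels of 6.97, 5.87, 5.22 and 6.51 on dispersed 48-hr replicates 1 to 4 and of 9.35, 9.62, 9.55 and 10.01 on 72-hr replicates 5 to 8. In myofiber-associated myoblasts it had levels of 4.81 on the pooled 48-hr array, 4.41, 4.56 and 4.56 on replicates 7 to 9, and 10.67, 9.46, 11.04 and 9.04 on 72-hr replicates 1 to 4. The times were thus far apart in both cultures, and the 48-hr levels on the fiber were the lowest of the 4 groups. The change was 3.49 in dispersed myoblasts (11.2-fold, SE 0.35, limma adjusted p = 0.000361) and 5.47 in myofiber-associated myoblasts (44.3-fold, SE 0.42, limma adjusted p = 0.000573), and both calls held in all 8 fits without 1 array. Normexp correction lowered the values to 2.58 and 3.62.

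**Figure D1:**
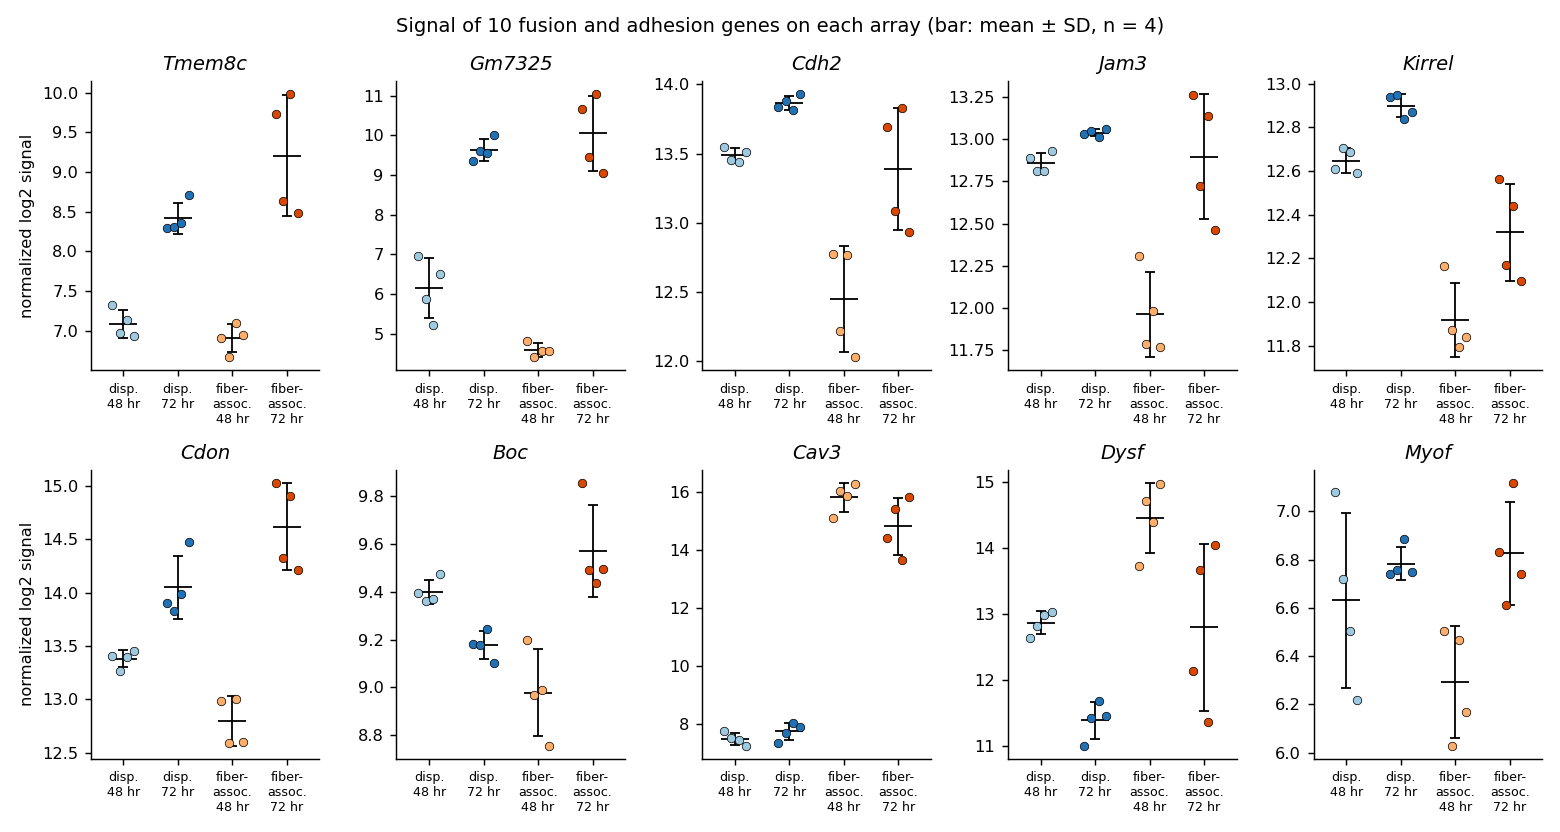
Normalized log2 signal (y axes, each with its own range) of the 10 genes on each of the 16 arrays, by culture and time (x axes). Points are arrays, bars are the mean ± SD (n = 4), and each gene is shown by its brightest probe. The fusogens Tmem8c and Gm7325 separate the times in both cultures, while Cav3 lies between 7.27 and 8.04 on all dispersed arrays and between 13.65 and 16.26 on all myofiber-associated arrays.

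The adhesion genes were bright in all groups at their brightest probes and moved less. Cdh2, which encodes N-cadherin, had levels of 13.55, 13.46, 13.44 and 13.51 on dispersed 48-hr replicates 1 to 4 and of 13.84, 13.88, 13.81 and 13.93 on 72-hr replicates 5 to 8. It rose by 0.38 (1.30-fold, SE 0.04, limma adjusted p = 0.00077), a small change with no overlap between the times. With 1 fit of all 16 arrays the call was lost (adjusted p = 0.273). In myofiber-associated myoblasts its levels were 12.03 to 12.77 at 48 hr and 12.93 to 13.83 at 72 hr, a change of 0.94 with no overlap that did not pass the threshold (SE 0.26, limma adjusted p = 0.0357). The second Cdh2 probe had changes of 0.48 (SE 0.04, limma adjusted p = 0.000231 over all probes) and 0.84 (SE 0.27, limma adjusted p = 0.0574 over all probes), and at it the times overlapped on the fiber.

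Jam3 encodes a junctional adhesion molecule. Its levels were 12.81 to 12.93 at 48 hr and 13.01 to 13.06 at 72 hr in dispersed myoblasts, and 11.77 to 12.31 and 12.46 to 13.27 in myofiber-associated myoblasts. The times did not overlap in either culture, yet neither change passed the threshold, at 0.18 (SE 0.04, limma adjusted p = 0.016) and 0.94 (SE 0.20, limma adjusted p = 0.0174). Without 72-hr replicate 4 or without the pooled array the second one passed (adjusted p = 0.00886 without replicate 4).

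Kirrel, the mammalian counterpart of the fly adhesion proteins that drive myoblast recognition, was called in dispersed myoblasts by its brightest probe, with a change of 0.25 (1.19-fold, SE 0.05, limma adjusted p = 0.0061). Its levels there were 12.59 to 12.70 at 48 hr and 12.84 to 12.95 at 72 hr. The other probes, whose bases are shown above, had changes of 0.24 (SE 0.17, limma adjusted p = 0.345 over all probes) and 0.05 (SE 0.11, limma adjusted p = 0.762 over all probes). They were dimmer, with group means of 7.58 to 8.52 and of 6.27 to 7.04. Leaving out any 1 array ended the call, the adjusted p then being 0.0107 to 0.0207, and in the mean of the 3 probes (adjusted p = 0.105). In myofiber-associated myoblasts the 3 probes had changes of 0.40, 0.53 and 0.39, none past the threshold.

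Of the co-receptors, Cdon rose in both cultures and Boc differed between them. Cdon had levels of 13.41, 13.27, 13.39 and 13.46 on dispersed 48-hr replicates 1 to 4 and of 13.90, 13.83, 13.99 and 14.48 on 72-hr replicates 5 to 8. In myofiber-associated myoblasts its levels were 12.99 on the pooled 48-hr array, 12.59, 13.01 and 12.61 on replicates 7 to 9, and 15.03, 14.33, 14.90 and 14.21 on 72-hr replicates 1 to 4. The 48-hr arrays on the fiber all lay below the dispersed ones, and the 72-hr arrays overlapped with a higher mean on the fiber, neither difference passing the threshold. At the other Cdon probe the cultures overlapped at 48 hr (-0.13, limma adjusted p = 0.572 over all probes) and were apart at 72 hr (1.14, 2.21-fold higher on the fiber, SE 0.20, limma adjusted p = 0.000344 over all probes). The rise of Cdon was 0.67 off the fiber (1.59-fold, SE 0.14, limma adjusted p = 0.00913) and 1.82 on it (3.53-fold, SE 0.21, limma adjusted p = 0.00195). Leaving out any 1 array kept the call on the fiber, whereas in dispersed myoblasts it held in 1 of 8 such fits, that without 72-hr replicate 8. At the other Cdon probe the changes were 0.27 (SE 0.10, limma adjusted p = 0.0951 over all probes) and 1.54 (SE 0.24, limma adjusted p = 0.00553 over all probes), so the rise in dispersed myoblasts rested on the brighter probe. Of all tested probes 12.4% passed in dispersed and 5.43% on the fiber.

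Boc, the relative of Cdon, had changes of opposite sign. Its levels were 9.39, 9.36, 9.37 and 9.47 on dispersed 48-hr replicates 1 to 4 and 9.18, 9.18, 9.25 and 9.10 on 72-hr replicates 5 to 8. On the fiber they were 9.20 on the pooled 48-hr array, 8.97, 8.99 and 8.76 on replicates 7 to 9, and 9.86, 9.49, 9.44 and 9.50 on 72-hr replicates 1 to 4. All dispersed arrays were lower at 72 hr and all myofiber-associated arrays higher. Neither change alone passed the threshold, at -0.22 (SE 0.05, limma adjusted p = 0.0102) and 0.59 (SE 0.13, limma adjusted p = 0.0191), but their difference did.

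The membrane proteins of differentiated muscle, Cav3 and Dysf, ordered the myofiber-associated 72-hr arrays as the fiber markers did. Cav3, which encodes the muscle caveolin, had levels of 7.27 to 7.76 at 48 hr and 7.37 to 8.04 at 72 hr in dispersed myoblasts (change 0.26, SE 0.16, limma adjusted p = 0.266). On the fiber its levels were 15.10 on the pooled 48-hr array, 16.03, 15.86 and 16.26 on replicates 7 to 9, and 14.41, 15.40, 13.65 and 15.83 on 72-hr replicates 1 to 4 (change -0.99, SE 0.47, limma adjusted p = 0.148). Its order among the 72-hr arrays, replicate 4, 2, 1 and 3 from high to low, was that of the summed fiber marker signal.

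Dysf, which encodes the membrane repair protein dysferlin, was the member called lower at 72 hr, in dispersed myoblasts. In dispersed myoblasts it had levels of 12.64, 12.82, 12.98 and 13.02 on 48-hr replicates 1 to 4 and of 11.01, 11.43, 11.69 and 11.46 on 72-hr replicates 5 to 8, a change of -1.47 (2.77-fold lower, SE 0.15, limma adjusted p = 0.000336) that passed without any 1 array but not in 1 fit of all 16 arrays (adjusted p = 0.0573, where the other settings gave down to 0.000142). The times were more than 0.9 apart at their nearest arrays. On the fiber its levels were 13.73 on the pooled 48-hr array, 14.72, 14.39 and 14.96 on replicates 7 to 9, and 12.13, 13.66, 11.37 and 14.04 on 72-hr replicates 1 to 4, a change of -1.65 with overlap (SE 0.58, limma adjusted p = 0.0719). Here too replicates 4 and 2, with more fiber marker signal, were the higher ones. Over the 21 fiber markers in dispersed myoblasts, 9 were lower at 72 hr past the threshold and 1 higher, with a median change of -1.46. Of the 12 endothelial markers 11 were lower there past the threshold and none higher, with a median change of -1.43. Among the dispersed 48-hr arrays, Dysf was lowest on replicate 1, which had the highest summed fiber marker signal (17.21 in log2). The log2 summed endothelial signal was 17.12, 17.29, 17.38 and 17.57 on dispersed 48-hr replicates 1 to 4. On 72-hr replicates 5 to 8 it was 15.68, 15.95, 16.18 and 16.03. At each time this was also the order of Dysf. The part of either set in the fall of Dysf was not tested.

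Myof, which encodes myoferlin, was dim, with levels of 6.03 to 7.12 over all 16 arrays. Its changes were 0.15 off the fiber (SE 0.16, limma adjusted p = 0.54) and 0.53 on it (SE 0.15, limma adjusted p = 0.0388), the latter with no overlap between the times.

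**Figure D2:**
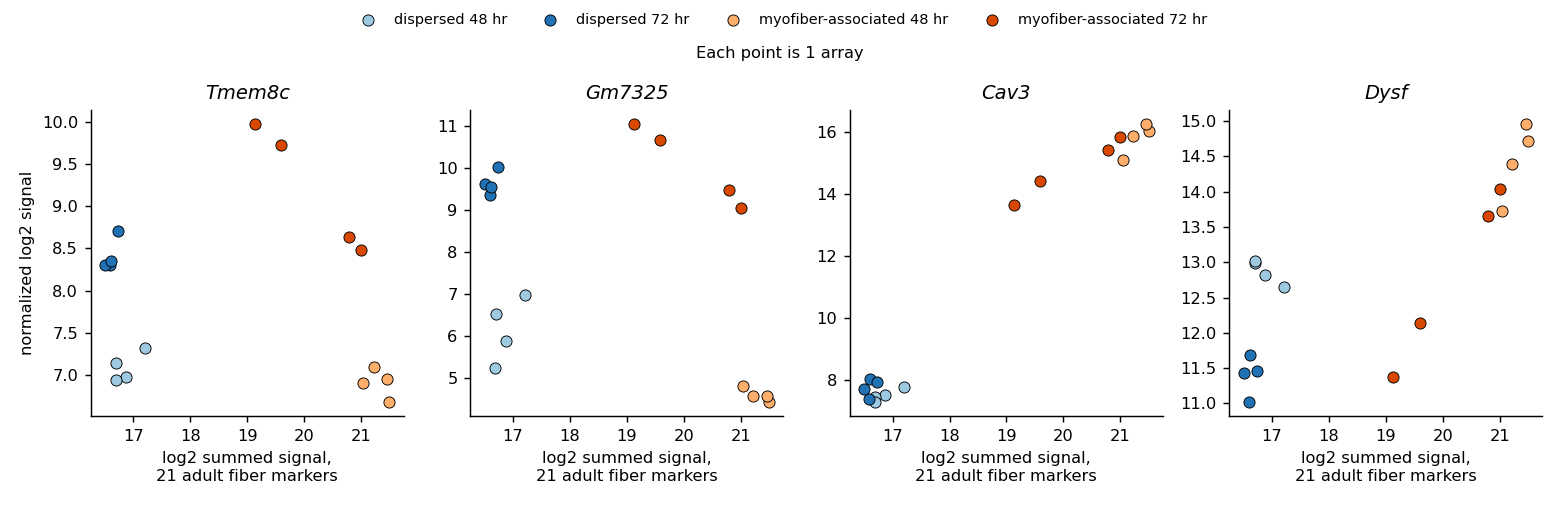
Normalized log2 signal (y axes) of the fusogens Tmem8c and Gm7325 and of Cav3 and Dysf against the log2 summed signal of 21 adult fiber markers (x axes), with 1 point per array. Among the 4 myofiber-associated 72-hr arrays (dark orange), the fusogens are higher and Cav3 and Dysf lower where the marker sum is lower, from 19.13 to 20.998. Of the members not drawn, the brightest probes of Cdh2, Jam3, Kirrel, Cdon and Myof were also higher on replicates 1 and 3 than on 2 and 4. Boc was not.

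Counted together, 6 of the 10 members were called in dispersed myoblasts (Tmem8c, Gm7325, Cdh2, Kirrel and Cdon higher and Dysf lower at 72 hr), against 13.7% of all genes (7.38% higher and 6.32% lower). The times did not overlap for 8 of the 10, against 31.2% of all genes, and the members had a median change of 0.26, against 0.02. In myofiber-associated myoblasts 3 of the 10 were called (Tmem8c, Gm7325 and Cdon, all higher), against 5.48% of all genes (3.74% higher and 1.74% lower). The times did not overlap for 7 (all but Kirrel, Cav3 and Dysf), against 26.3%, and the median change was 0.76, against 0.06. Where the times did not overlap, the exact permutation test gave its smallest p for 4 against 4 arrays (0.0286, two-sided). With a single fit of all 16 arrays, the members called numbered 2 off the fiber, where 999 of the 20317 genes passed, and 7 on it, where 5780 did. The labels describe the samples as independent preparations, so the spread between arrays includes that between animals.

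**Figure D3:**
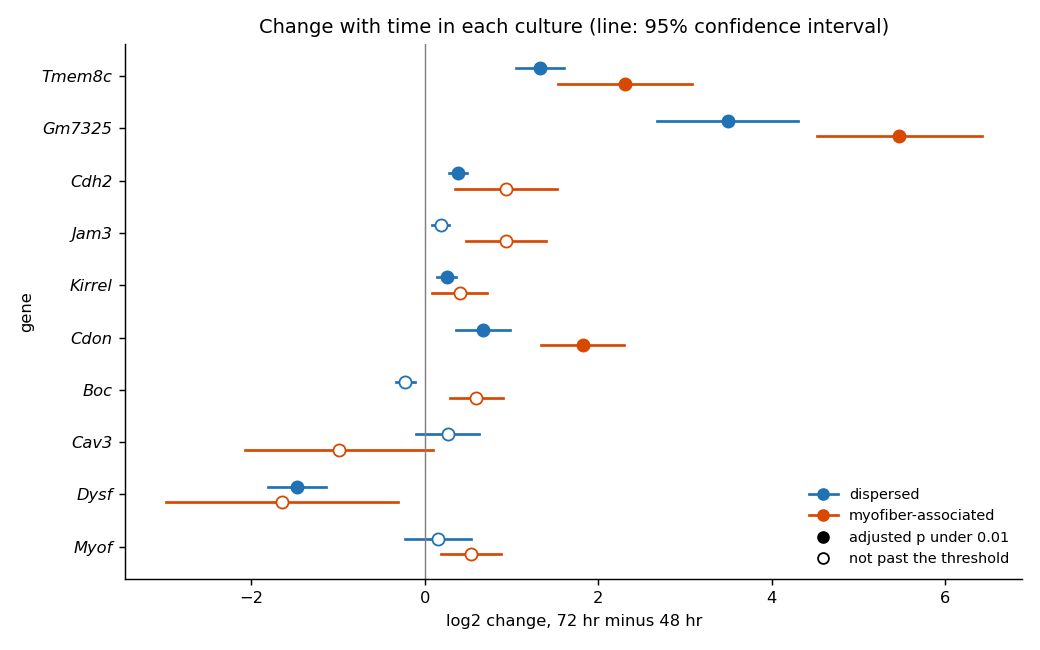
Log2 change between 48 and 72 hr (x axis) of the 10 genes (y axis) in dispersed (blue) and myofiber-associated (orange) myoblasts, with 95% confidence intervals as lines. Filled points passed the threshold of 0.01 on the adjusted p. Gm7325 has the largest change in both cultures (3.49 and 5.47), and Boc alone has intervals on opposite sides of 0.

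The difference between the changes, dispersed minus myofiber-associated, was tested as an interaction. Of the 10 members 1 was called, Boc, against 3.45% of all genes, with a difference of -0.82 (95% confidence interval -1.12 to -0.52, SE 0.14, limma adjusted p = 0.00335), and it passed in each of the 16 fits without 1 array. For Cdon the difference was -1.15 (interval -1.72 to -0.59, limma adjusted p = 0.0136), for Jam3 -0.75 (-1.22 to -0.29, 0.0333), for Gm7325 -1.98 (-3.22 to -0.73, 0.0363) and for Tmem8c -0.98 (-1.79 to -0.16, 0.0904). The sign was below 0 for 8 of the 10 members, with a median of -0.66 against -0.07 over all genes. Here 1 array counted for much: without myofiber-associated 72-hr replicate 4, one of the 2 with more fiber marker signal, 4 members passed (Boc, Cdon, Jam3 and Gm7325), and without the pooled 48-hr array 3 did (Boc, Cdon and Jam3). Over all genes the counts rose as well, from 701 to 1766 and 2368. With normexp correction the Gm7325 difference was -1.04 (adjusted p = 0.176, the highest over the settings, the lowest being 0.0134).

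**Figure D4:**
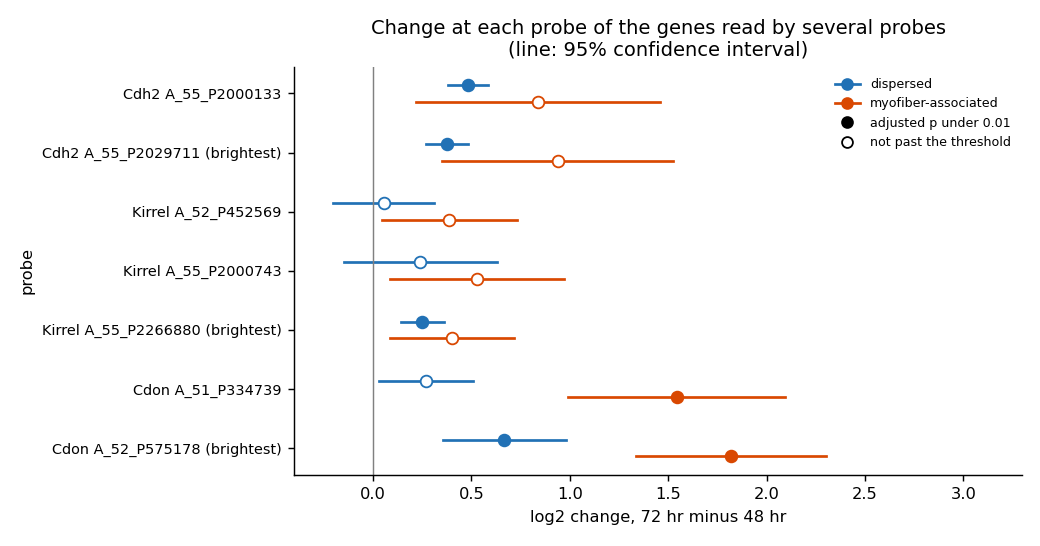
Log2 change between 48 and 72 hr (x axis) at each probe of Cdh2, Kirrel and Cdon (y axis) in dispersed (blue) and myofiber-associated (orange) myoblasts, with 95% confidence intervals as lines and filled points past the threshold of 0.01 on the adjusted p. In dispersed myoblasts the brightest probes of Kirrel (0.25) and Cdon (0.67) are past it and their other probes are not.

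Between the cultures, slide and culture cannot be told apart, since each culture filled a slide of its own. At 48 hr 7 of the 10 members were called, against 51.6% of all genes (19.1% higher and 32.5% lower on the fiber), and the cultures did not overlap for 8, against 55.9%. Cav3 was higher on the fiber by 8.31 (318-fold, SE 0.38, limma adjusted p = 3.81e-09), beside 20 of 21 fiber markers that were higher there with a median of 5.76. Dysf was higher by 1.58 (SE 0.46, limma adjusted p = 0.0077), a call that held in 1 of the 8 fits without 1 array, that without the pooled array. Lower on the fiber were Cdh2 (-1.04), Jam3 (-0.90), Kirrel (-0.73) and Boc (-0.42), each called in all 8 fits without 1 array. Gm7325 was lower too (-1.56, SE 0.41, limma adjusted p = 0.00432), but with normexp correction the value was -0.58 (adjusted p = 0.186), with 75th percentile scaling it was -1.35 (adjusted p = 0.0132), and the call held in 3 of the 8 fits without 1 array (without dispersed replicate 2 or 3 or the pooled array). Tmem8c levels overlapped (-0.19, interval -0.76 to 0.39).

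At 72 hr 3 of the 10 members were called, against 31.3% of all genes (12.9% higher and 18.4% lower on the fiber), and the cultures did not overlap for 3, against 46.4%. Cav3 was higher on the fiber by 7.06 (134-fold, SE 0.38, limma adjusted p = 8.68e-09), beside 17 of 21 fiber markers. Boc was higher by 0.39 (SE 0.10, limma adjusted p = 0.00504), in 4 of the 8 fits without 1 array (lost without dispersed replicate 5, 6 or 8 or myofiber-associated replicate 1), and Kirrel lower (-0.58, SE 0.10, limma adjusted p = 0.000423), in all 8. At the other Kirrel probes the differences were -0.41 and -0.39, neither past the threshold (limma adjusted p = 0.0937 and 0.031 over all probes). Both fusogens overlapped between the cultures at 72 hr, with differences of 0.79 for Tmem8c (interval 0.21 to 1.37, limma adjusted p = 0.0271) and 0.42 for Gm7325 (-0.46 to 1.30, 0.423), and Tmem8c passed without 72-hr replicate 4 (adjusted p = 0.00481). The mean levels of Tmem8c therefore ran from 6.90 on the fiber and 7.09 in dispersed myoblasts at 48 hr to 8.42 in dispersed myoblasts and 9.21 on the fiber at 72 hr, with neighbours of the same time overlapping.

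Other genes of the fusion pathway were taken from lists written by hand. Of 21 other adhesion receptors and their catenins that were tested (of 24 listed), 3 rose in dispersed myoblasts and none fell, and 3 rose in myofiber-associated myoblasts and none fell, with median changes of 0.18 and 0.40. Over all genes, 13.7% and 5.48% were called and the medians were 0.02 and 0.06, which hold for the lists that follow too, so the count of 3 in dispersed myoblasts was near the background. Jam2, the binding partner of Jam3, rose by 0.72 (SE 0.06, limma adjusted p = 0.000113) and by 1.88 (SE 0.17, limma adjusted p = 0.000995), and the difference passed too (-1.16, SE 0.19, limma adjusted p = 0.00253). The others that rose were Ncam1 (0.42) and Cd44 (0.35), a neural cell adhesion molecule and a hyaluronan receptor, in dispersed myoblasts, and Cdh15 (1.32), which encodes M-cadherin, and the tetraspanin gene Cd81 (0.64) on the fiber. For Ctnnb1, which encodes beta-catenin, the difference passed (-0.81, SE 0.16, limma adjusted p = 0.00656).

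Among 18 tested partners of Cdon and Boc (of 20 listed), 3 rose and 1 fell in dispersed myoblasts, and 1 rose on the fiber. Gas1, a further Hedgehog co-receptor, rose in both, by 0.50 (SE 0.06, limma adjusted p = 0.000723) and by 1.59 (SE 0.14, limma adjusted p = 0.00083), and more on the fiber (difference -1.09, SE 0.15, limma adjusted p = 0.00112). In dispersed myoblasts the Hedgehog targets Hhip (1.53) and Gli1 (0.55) rose and the neogenin ligand gene Rgma fell (-0.93).

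Of 25 tested genes of the actin machinery (of 26 listed), 3 rose and 2 fell in dispersed myoblasts and 1 rose on the fiber, with median changes of 0.07 and 0.03, counts and medians near those of all genes on the fiber. Vcl (vinculin, 0.41) rose and the actin nucleation promoters Wasl (-0.46) and Was (-0.43) fell in dispersed myoblasts, while Wasf2 rose by 0.73 on the fiber (SE 0.13, limma adjusted p = 0.00922). The difference passed for Was (-0.75) and Wasf2 (-0.74).

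Of 27 tested genes of caveolae and membrane repair (of 29 listed), 8 rose and 1 fell in dispersed myoblasts, with a median change of 0.14. On the fiber none passed in limma, with 15 at an unadjusted p under 0.05 and a median of -0.20. Sdpr (0.87), a cavin, and Bves (0.69), a Popeye-domain protein, rose in dispersed myoblasts and the cavin gene Prkcdbp fell (-0.61). The difference passed for Bin1 (0.94), a membrane-curving protein. Of 4 other ferlins only Otof was bright enough to test, with changes of -0.02 and -0.21 that did not pass.

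Terminal differentiation genes were set beside the fusogens. Of 28 tested, 10 rose and 3 fell in dispersed myoblasts, with the largest changes in Myog (3.92), the myogenin gene, in Myh3 (3.36), an embryonic myosin, and in the troponin gene Tnnt1 (2.34). On the fiber 3 rose and none fell, Chrna1 (1.37) and Chrng (1.78), subunits of the acetylcholine receptor, and Myh3, which was well above background on 1 of 4 arrays at 48 hr and on all 4 at 72 hr. The median change on the fiber was nevertheless -0.76, against 0.24 in dispersed myoblasts. Only 10 of the 28 had a change above 0 on the fiber, and 22 had an unadjusted limma p under 0.05. Myog was unlike Tmem8c and Gm7325 there, with a change of -0.64 (SE 0.45, limma adjusted p = 0.311) and a difference between the cultures of 4.55 (SE 0.54, limma adjusted p = 0.000482). At 48 hr the Myog level was 14.30 on the fiber and 6.05 in dispersed myoblasts. By staining of the protein, the paper detected no myogenin-positive cells in either culture at 48 hr. On the same arrays 20 of 21 fiber markers were also higher on the fiber, with a median difference of 5.76. The part of fiber transcripts in the Myog level was not tested.

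**Figure D5:**
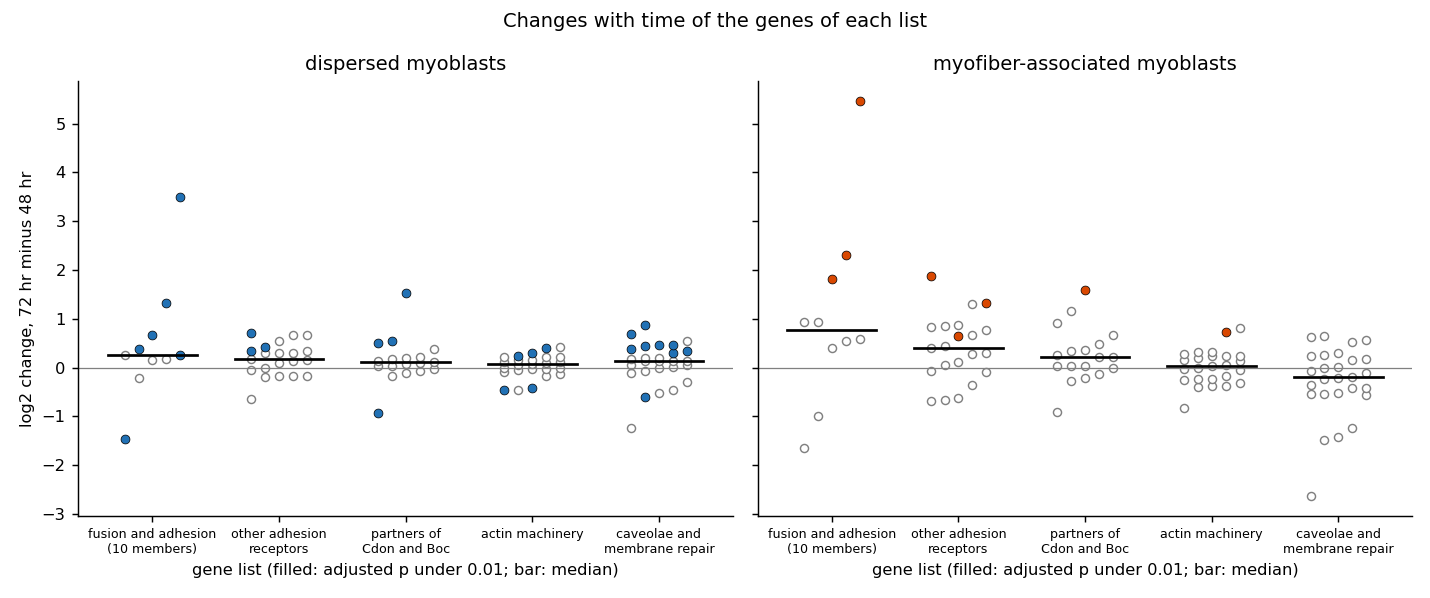
Log2 change between 48 and 72 hr (y axis) of every tested gene of the 10 members and of 4 lists of related genes (x axis) in dispersed (left) and myofiber-associated (right) myoblasts. Points are genes, filled where the adjusted p is under 0.01, and bars are medians. The members' medians of 0.26 and 0.76 lie above those of the 4 lists drawn, whose highest are 0.18 and 0.40. Not drawn are terminal differentiation genes, with medians of 0.24 and -0.76, and myoblast markers, with medians of 0.24 and 0.61.

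For each fusogen, the genes with the nearest centred log2 levels were found by root mean square difference over the 16 arrays, among 20307 genes. This distance counts the size of a change as well as its direction. Nearest to Tmem8c, at 0.244 to 0.273, were the cDNA AK013898, Chst8, Robo1, an unnamed transcribed region and Syn1. Gm7325 had 1 near gene, Tcerg1l, at 0.307, and the next, Dner, an unnamed region, Dynap and Igfbp2, were at 0.65 to 0.818. Between members the nearest pairs were Cdh2 and Jam3 (0.18) and Jam3 and Kirrel (0.228), and Tmem8c was nearer to Cdon (0.385) than to Gm7325 (1.46). Both fusogens rose in both cultures, Gm7325 by more (3.49 and 5.47) than Tmem8c (1.33 and 2.30), and this distance includes that difference in size. Values of all these genes share the same arrays and normalization.

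RefSeq promoter windows (250 bases before to 50 after a start, GRCm38.p6) were given for 5 of the 10 members, Kirrel, Dysf, Cav3, Cdon and Myof, in 6 windows. The E-box CANNTG, the motif bound by MyoD and myogenin, was searched as it stands, since it reads the same on the other strand. It was found in the Cav3 window and in 1 of the 2 Dysf windows, there outside the 250 bases before the start, and in 72.3% of all 32851 windows. CAGCTG, a subset of it, was found in the Cav3 window and in 16.3% of all windows, and CAGGTG or its reverse complement CACCTG in none of the 6 and in 20.2% of all. The 250 bases before the Cav3 start are shown as those of the member with the largest difference between the cultures, with both E-boxes in capitals (plus strand, chr6:112459255-112459504).
Cav3 upstream: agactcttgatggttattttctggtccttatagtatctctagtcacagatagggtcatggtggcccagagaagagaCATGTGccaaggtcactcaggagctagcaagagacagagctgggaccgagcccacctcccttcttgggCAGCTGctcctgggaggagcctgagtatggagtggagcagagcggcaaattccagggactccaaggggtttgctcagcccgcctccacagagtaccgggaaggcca
A match in this window is a description of its letters only.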

How the data were processed

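RNA of 16 samples in 4 groups of 4 was read on one-color Agilent arrays. The authors deposited each spot's background-corrected scanner signal as intensity, and a series table of 72-hr over 48-hr log2 ratios, used here as an alternative. Here, log2 was taken, and spots the scanner software called outliers were dropped (none of a member). Arrays were loess-normalized (span 0.3, 4 iterations) to their culture's 48-hr mean, as in the study's methods, then brought to common quantiles. Repeat spots of a probe were averaged, each gene was read from its brightest probe, and genes dimmer than a median of 5 (log2) went untested. The number of arrays limits the precision: SDs over all genes had medians of 0.09 to 0.22 in the groups. For the members the medians were 0.13 to 0.42, with SDs of up to 1.26 on the myofiber-associated 72-hr arrays.

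Groups were compared with limma 3.58.1 (R 4.3.3), two-sided, with p-values adjusted by Benjamini-Hochberg across all genes or all probes and a threshold of 0.01. The samr package used in the study was not used here. Members were also compared with exact permutation tests. The fits were tested on simulated data. Python 3.11.15 drew the plots. The slides carried 2 design versions, whose gene names differ for 1849 spots but for no member, and the earlier names were used.

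The members, lists and tests were chosen with earlier results of these data known. Named are all members, at most 3 genes per other list and comparison (the largest changes past the threshold that all arrays of some group detected), markers, and the 5 genes nearest to each fusogen. The lists, written by hand, cover other adhesion receptors, partners of Cdon and Boc, actin machinery, caveolae and membrane repair, ferlins, terminal differentiation, and markers of myoblasts, adult fibers, endothelial cells, fibroblasts, pericytes, leukocytes and Schwann cells. The alternatives were normexp correction (offset 50), 75th percentile scaling, quantile normalization alone, no signal filter, a filter on detected probes, averaging a gene's probes, the slide row as a block, 1 fit of all 16 arrays, the deposited table, and each array left out in turn with the normalization kept.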

Additional observations from a re-analysis of the deposited data

Results flagged for a closer look

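Among 56 sets of 4 arrays (each of the 14 probes in each of the 4 groups), 3 held an array that lay far from the other 3, and chance flags about 1 in 20 such sets. Tmem8c had a level of 8.71 on dispersed 72-hr replicate 8, where the others lay at 8.30 to 8.35. Boc had a level of 9.86 on myofiber-associated 72-hr replicate 1, where the others lay at 9.44 to 9.50. Myof had a level of 6.88 on dispersed 72-hr replicate 7, where the others lay at 6.74 to 6.76. The change of Boc with time differed between the cultures by the test of the difference itself (-0.82, dispersed minus myofiber-associated), since Boc was lower at 72 hr on the dispersed arrays and higher on the myofiber-associated ones.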

How the results depend on the processing

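In dispersed myoblasts 2784 genes and 6 members passed the threshold, and in 1 fit of all 16 arrays 999 and 2 did. Without 1 array the counts were 1679 to 2507 genes and 4 to 5 members. In myofiber-associated myoblasts 1113 genes and 3 members passed. There, 469 genes passed without a filter on low signal, 571 with the slide row as a block, 5780 genes and 7 members in 1 fit of all 16 arrays, and 3787 genes and 5 members in the deposited table. Without 1 array the counts were 232 genes (without 48-hr replicate 7) to 1991 (without the pooled array; 1392 without 72-hr replicate 4) and 2 to 4 members. For the difference of the changes 701 genes and 1 member passed, 409 genes did without a filter, and 3823 genes and 3 members in the deposited table. Without 1 array the counts were 295 to 2368 genes (the highest without the pooled array; 1766 without myofiber-associated 72-hr replicate 4) and 1 to 4 members. Between the cultures 10490 genes passed at 48 hr and 6363 at 72 hr, with 9073 to 11654 and 4902 to 6249 without 1 array. Members passing were 7 and 3, with 5 to 7 and 2 to 5 without 1 array, 5 being without myofiber-associated 72-hr replicate 4. Quantile normalization alone left all 50 member results on their side of the threshold. Signs turned only in fits without 1 array and for results that had not passed: the Dysf difference (-0.30 to 0.59), and the 72-hr culture differences of Jam3 (-0.27 to 0.00209) and Myof (-0.0533 to 0.11). The causes of these shifts were not tested. No paired analysis was possible because the groups compared share no replicate numbers that could tie their arrays together. Signal over background limited Gm7325 most, whose 48-hr levels on the fiber (4.41 to 4.81) lay near the dimmest detected signals there (3.57 to 4.08), and 3 of 4 other ferlins were too dim to test.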
